A study of Mus musculus with 7 samples.

Results

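The 31 small subunit ribosomal protein genes are the genes of the proteins that build the 40S subunit of the ribosome. They were taken from a table of 13167 mouse transcripts by symbol, as every Rps gene followed by a digit plus Rpsa. Kinases of the Rps6k family, symbols ending in l and the binding protein Rps19bp1 were left out. The choice of genes used names alone, but it was made with earlier results of these data known. It matched 32 rows, because Rps27 stands in the table as a pair of transcripts, and the row with more footprints was kept. The measurement is ribosome profiling, in which the stretch of mRNA under each ribosome is sequenced. The footprints of a coding region thus count the ribosomes on it, moving or stalled. The samples are primary epidermis of mice with a transgenic knockout of Pelota (gene Pelo; KO, 2 libraries) and of wild-type mice (WT, 2 libraries), all made after rRNA removal (RiboZero-Gold). The age, the strain, the promoter of the transgene and the number of animals behind a library are not given in the labels. Nothing in the labels says that the replicates are separate animals, and a p-value therefore speaks only of the spread among these 4 libraries, which may be technical. RNA-seq libraries of both genotypes are named in the labels too and were not analysed here.

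In a eukaryotic cell the 40S subunit binds initiation factors, scans the 5′ untranslated region (UTR) and reads codons, and nearly every small subunit protein is present once per ribosome. Together with the GTPase Hbs1l and with Abce1, Pelota splits ribosomes that have stalled on an mRNA, and ubiquitination of a few small subunit proteins marks collided ribosomes. Ribosomal protein mRNAs are known for a terminal oligopyrimidine tract, a C followed by a run of pyrimidines (C or T) at the very start of the transcript, through which mTOR signalling sets their translation. Ribosomal protein genes also have many processed pseudogenes, whose sequence nearly matches the parent mRNA.

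Start sites are shown because this tract is the sequence feature that ribosomal protein mRNAs are known to share. Promoter sequences from RefSeq (GRCm38.p6) were found for 23 of the 31 genes. A C followed by at least 4 further pyrimidines, with its first base within 3 bases of the annotated start and on the gene's own strand, was present in 9 of the 23, or 39.1%, against 13.5% of the 27025 genes with a promoter in the table, each counted if any of its promoters matched. The 6 genes with the longest runs are given as 30 bases centred on the annotated start, 5′ to 3′, with the run in capitals.
Rps10: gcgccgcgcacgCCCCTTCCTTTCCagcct
Rps18: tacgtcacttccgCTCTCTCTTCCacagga
Rps6: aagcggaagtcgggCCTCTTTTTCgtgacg
Rps27: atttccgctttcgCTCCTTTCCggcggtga
Rps15a: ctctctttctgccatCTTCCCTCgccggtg
Rps24: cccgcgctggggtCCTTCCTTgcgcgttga
The windows lie at chr17:27635230-27635259 (minus strand) for Rps10, chr17:33955651-33955680 (minus) for Rps18 and chr4:86857353-86857382 (minus) for Rps6. Those of Rps27, Rps15a and Rps24 lie at chr3:90213634-90213663 (minus), chr7:118116133-118116162 (minus) and chr14:24490663-24490692 (plus). Runs were 13 bases in Rps10 and 11 in Rps18, and Rps23, Rps21 and Rps9 held shorter ones. Searched anywhere in the 30 bases, the motif was in 15 of the 23 genes (65.2%) and in 40.3% of all genes with a promoter. A match is a description of the letters at an annotated start, not a mapped transcript end.

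Pelo was lower in both KO libraries, with 24 and 21 footprints over its coding region in KO, against 101 and 61 in WT (log2 change −1.65, SE 0.245, edgeR quasi-likelihood adjusted p = 0.000807). Depth was similar, with 4925876 and 4521561 coding footprints per KO library, against 5282276 and 4221675 per WT library, and library medians of 90 to 112 for a listed transcript. The labelled tissue was checked by 7 keratinocyte markers, all in the table, which in KO took 6.39% and 5.89% of the coding total and in WT 2.30% and 2.37%. The 12 cornified-layer markers held 3.21% and 2.99% in KO and 0.990% and 0.929% in WT. The 9 dermal fibroblast markers held 4.15% and 4.73% in KO and 8.80% and 13.1% in WT. Dermal genes were thus present in samples labelled as epidermis, at a higher share in WT. Called higher in KO were 5 of 7 keratinocyte and 10 of 11 cornified markers tested, and called lower were 6 of 9 fibroblast markers. Among other lists, all 5 sebaceous markers tested were called lower in KO. So were 5 of 6 adipocyte, 5 of 6 macrophage and dendritic, 2 of 4 T cell and 1 of 2 skeletal muscle markers tested. All 4 melanocyte markers tested were called higher, and none of 4 endothelial markers was called. The shares over all transcripts tested were 19.9% called higher and 19.1% lower.

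Every small subunit gene carried more footprints in Pelota knockout epidermis. All 31 were listed in all 4 libraries, passed the filter on low counts (at least 10 counts in at least 2 libraries) and were called higher in KO at an adjusted p under 0.05 (edgeR quasi-likelihood test, adjusted over 10953 transcripts). For none of the 31 did the genotypes overlap. Over all transcripts tested, 19.9% of transcripts were called higher and 19.1% lower, and 35.4% had both KO libraries above both WT libraries. With library totals in place of TMM scaling the table gave 1501 higher and 3023 lower calls in place of 2184 and 2093, and the 31 calls stood. Summed, the small subunit genes had 41221 and 39183 coding counts in KO, against 18462 and 13890 in WT. That is 0.837% and 0.867% of the coding total in KO, against 0.350% and 0.329% in WT, a ratio of 2.51 between the means.

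The sizes of the rises lay close together. The median log2 change of the 31 genes was 1.46, the range 1.26 (Rps10) to 1.97 (Rps2) and the SD 0.199, while all transcripts tested had a median of −0.02 and an SD of 0.794. Of all transcripts tested, 505 (4.61%) had a change as large as that of Rps10 or larger. The 46 large subunit genes of the table, of which 45 were tested and called higher, had a median of 1.46 with a range of 1.09 to 2.50. Their share of the coding total was 1.23% and 1.28% in KO and 0.546% and 0.517% in WT. In these bulk samples, more cells of a type and more RNA per cell cannot be told apart, and without RNA counts neither can more mRNA and more ribosomes per mRNA. The part of these shifts in cell type markers in the rise was not tested. With cornified and fibroblast markers taken out of the total, the small subunit share was 0.903% and 0.939% in KO and 0.387% and 0.383% in WT.

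**Figure D1:**
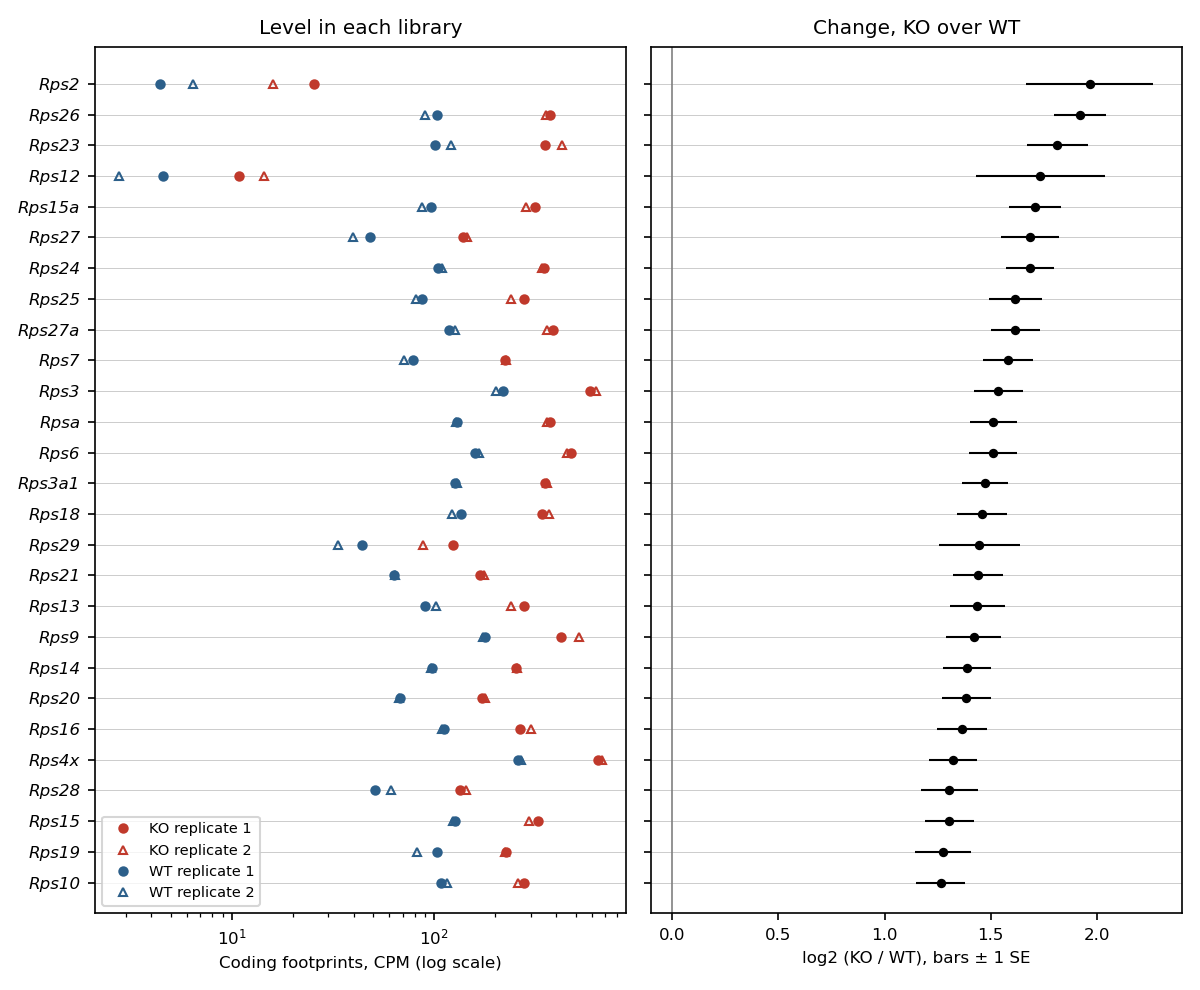
Left, coding footprints of 27 of the 31 genes in CPM (log axis) in each KO and WT library; right, log2 change of KO over WT with bars of 1 SE. Both KO libraries lie to the right of both WT libraries for every gene shown, and the changes run from 1.26 for Rps10 at the bottom to 1.97 for Rps2 at the top.

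Among the 5 largest rises were those of Rps2, Rps26, Rps23 and Rps12. Rps2, a protein at the mRNA entry channel, had 25.6 and 16.0 CPM (counts scaled to a common library size) in KO against 4.40 and 6.46 in WT. Its log2 change of 1.97 (SE 0.300, adjusted p = 0.000941) rested on 116 and 69 raw footprints in KO and 25 and 28 in WT. Both KO values lay above both WT values, but the KO replicates stood further apart than for most members.
Rps26, which lies beside the mRNA where it leaves the subunit, had 375 and 356 CPM in KO against 103 and 89.8 in WT (1.92, SE 0.122, adjusted p = 9.10e-06). Its replicates of a genotype lay close together and far from the other genotype.
Rps23, a protein of the decoding centre, had 354 and 427 CPM in KO against 101 and 121 in WT (1.81, SE 0.143, adjusted p = 2.23e-05). Rps12, a protein of the beak of the 40S head, had 10.8 and 14.4 CPM in KO against 4.57 and 2.77 in WT (1.73, SE 0.302, adjusted p = 0.00198). Rps12 had the fewest footprints of the 31 when summed over the libraries, 49 and 62 in KO and 26 and 12 in WT, and the largest adjusted p. Leaving out 1 library at a time moved its log2 change between 1.46 and 2.17 and that of Rps2 between 1.59 and 2.26, and both calls stood.

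The 5 smallest rises, those of Rps10, Rps19, Rps15, Rps28 and Rps4x, were each over a doubling. Rps10, a head protein, had 279 and 259 CPM in KO against 109 and 116 in WT (log2 change 1.26, SE 0.115, adjusted p = 4.55e-05). Rps19, the gene most often mutated in the human anaemia described below, had 226 and 224 CPM in KO against 103 and 82.4 in WT (1.27, SE 0.134, adjusted p = 0.000101). For both, the KO replicates were nearly level and above either WT library.
Rps15, a head protein whose tail reaches toward the decoding site, had 324 and 296 CPM in KO against 127 and 124 in WT (1.30, adjusted p = 3.75e-05). Rps28, near the mRNA exit, had 134 and 143 CPM in KO against 51.2 and 61.4 in WT (1.31, adjusted p = 8.75e-05). Rps4x, an X-linked body protein, had 646 and 672 CPM in KO against 258 and 269 in WT (1.32, adjusted p = 3.01e-05). Rps4x was the most abundant of the 31 in CPM in all 4 libraries. Whether the members' changes differed from one another was not tested; neighbours in the order of change lay within 1 SE of each other.

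The proteins that are ubiquitinated on collided ribosomes in human cells, Rps2, Rps3, Rps10 and Rps20, were among the genes that rose. Rps3, which lines the mRNA entry channel, had 591 and 629 CPM in KO against 220 and 201 in WT (log2 change 1.53, SE 0.116, adjusted p = 1.80e-05). Rps20, a head protein next to Rps3, had 172 and 179 CPM in KO against 67.6 and 66.7 in WT (1.38, SE 0.116, adjusted p = 2.92e-05). With Rps2 and Rps10 above, the 4 had a median of 1.46, the same as all 31.
Rps6, the protein phosphorylated by the S6 kinases downstream of mTOR, had 476 and 454 CPM in KO against 160 and 167 in WT (1.51, SE 0.112, adjusted p = 1.69e-05). Rps27a, made as a fusion of ubiquitin to the ribosomal protein, had 387 and 360 CPM in KO against 118 and 126 in WT (1.61, SE 0.115, adjusted p = 1.53e-05). Both sets of KO libraries were well separated from WT.
By place in the subunit, the 14 head proteins were all called higher with a median of 1.42 (1.26 to 1.73). The 17 body and platform proteins were all called higher with a median of 1.51 (1.32 to 1.97). Loss of 1 copy of several of these genes causes Diamond-Blackfan anaemia in humans, and the 6 such genes counted here, Rps19 and Rps26 among them, had a median of 1.50. The 15 members of families shared by all domains of life had a median of 1.44. Since all 31 were called, no place or class in the subunit stood apart by its count.
Others lay in between. Log2 changes were 1.71 for Rps15a, 1.68 for Rps27 and Rps24, 1.62 for Rps25 and 1.58 for Rps7. They were 1.51 for Rpsa, which is also known as the laminin receptor, 1.47 for Rps3a1 and 1.46 for Rps18, which contacts the large subunit. Rps29, Rps21, Rps13 and Rps9 had changes of 1.42 to 1.44, and Rps14 and Rps16 of 1.39 and 1.37. The transcript of Rps27 that was kept had 632 and 623 raw counts in KO and 275 and 172 in WT, and the other had 425 and 430 in KO and 178 and 107 in WT, with a log2 change of 1.78.

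Levels per coding length differed among the members, with a pair far below the rest. Coding counts per length and library size (RPKM) had a median of 746 in KO, from 25.3 (Rps2) to 1268 (Rps26), and of 275 in WT, from 6.61 (Rps2) to 389 (Rps4x). The highest 3 in KO were Rps26, Rps23 and Rps24. Rps26 had 1301 and 1235 RPKM in KO against 357 and 312 in WT. Rps23 had 951 and 1148 RPKM in KO against 271 and 326 in WT. Rps24, whose protein is a body protein also on the anaemia list, had 1016 and 995 RPKM in KO against 305 and 321 in WT. In WT the order was led by Rps4x, and the next gene, Rps28, differed from it by less than the spread between its replicates.
The lowest levels were those of Rps2 and Rps12. Rps2 had 31.1 and 19.5 RPKM in KO against 5.35 and 7.86 in WT. Rps12 had 31.9 and 42.5 RPKM in KO against 13.5 and 8.17 in WT. Both lay far below all other members in both genotypes. Levels also differed among the rest. Rps7 had a mean of 426.5 RPKM in KO and 142.4 in WT, and Rpsa 443.5 in KO and 155.5 in WT. Rps26 had 1268 in KO and 334.5 in WT. Higher up, the order by mean RPKM shifted between the genotypes: Rps26 was 1st in KO and 6th in WT, Rps23 2nd in KO and 12th in WT, and Rps24 3rd in KO and 11th in WT.

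RefSeq names pseudogenes after 23 of the 31 genes, most for Rps12 (23), Rps19 (13), Rps2 (12) and Rpsa (12). Reads that match several places can be lost or split, and no source used here gives how they were treated. The values of Rps2 and Rps12, which stood so far below the other members, are therefore uncertain as levels. Many named pseudogenes did not go with a low level in every case, as Rps19 had 595 RPKM in KO and 245 in WT. Spearman's rho between the number of named pseudogenes and RPKM in KO was −0.41 over the 31 genes, given as a description. The 8 genes without a named pseudogene all rose, Rps3, Rps14 and Rps28 among them, by log2 changes of 1.31 to 1.53 with a median of 1.42, against a median of 1.51 for the 23 genes with one. Their median levels were 769 RPKM in KO and 279 in WT, and those of the 23 were 746 in KO and 275 in WT.

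**Figure D2:**
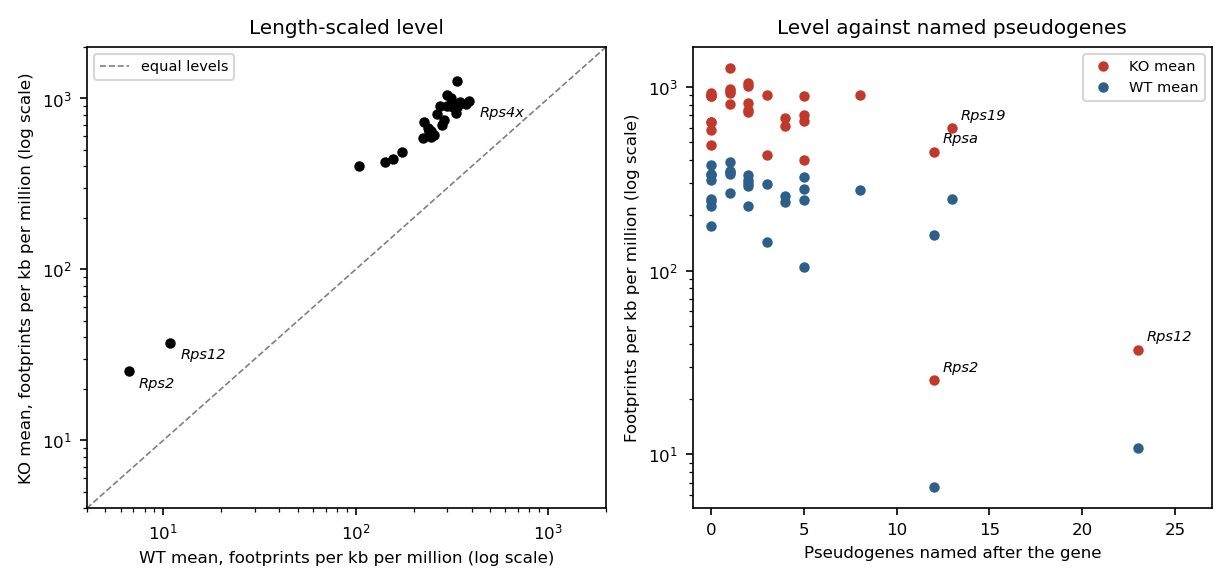
Left, length-scaled level (RPKM, log axes) of each of the 31 genes, KO mean against WT mean, with the line of equal levels; right, KO and WT mean levels against the number of pseudogenes that RefSeq names after the gene. All genes lie above the line; Rps2 and Rps12 lie far below the others in both genotypes.

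Of the genes close to the 31 by name or place, some were called higher and some were not called. Gnb2l1, which encodes Rack1, a 40S protein that takes part in sensing collisions, had 593 and 724 CPM in KO against 240 and 210 in WT (log2 change 1.55, adjusted p = 4.13e-05). Fau, which encodes small subunit protein eS30 fused to a ubiquitin-like protein, had 246 and 255 CPM in KO against 114 and 110 in WT (1.16, adjusted p = 5.95e-05). Both rose.
Rps27l, a paralogue of Rps27, had 39.7 and 44.6 CPM in KO against 43.4 and 31.2 in WT (0.17, SE 0.174, adjusted p = 0.484), and its genotypes overlapped. Rps4l, a paralogue of Rps4x, had 44.3 and 38.8 CPM in KO against 26.2 and 23.3 in WT (0.74, adjusted p = 0.00413). Rps19bp1, which encodes a binding partner of Rps19, had 29 and 45 raw footprints in KO and 18 and 30 in WT (0.79, adjusted p = 0.139), and its genotypes overlapped. Counts of paralogues depend on how shared reads were assigned, and the difference in change between Rps27l and Rps27 was not tested.

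Lists of genes that work on the small subunit had smaller medians than its proteins; the difference between lists was not tested. All 19 initiation factor genes of the 43S complex that were tested rose, with a median log2 change of 0.77. Eif1a, which helps select the start codon, had the largest change (1.36), then its partner Eif1 (1.17) and Eif3i (1.09), and the eIF3 subunits Eif3c and Eif3m the smallest (0.55 each).
Of 48 assembly factors of the 40S subunit that were tested, 28 rose, none fell and 20 were not called, with a median of 0.61. Among those that rose were Rrp12 (1.40), an export factor, Nop56 (1.35), a core protein of box C/D snoRNPs, Pno1 (1.23), a partner of the nuclease Nob1 (0.62), and Fbl (0.99), the rRNA methyltransferase fibrillarin. Tsr2, which in yeast escorts Rps26 to the nascent subunit, had 7.28 and 4.65 CPM in KO against 6.33 and 7.16 in WT (−0.16, adjusted p = 0.695).
Of 12 genes of stalled-ribosome sensing and clearance, 5 rose and 2 fell, with a median of 0.37. Besides Gnb2l1, Abce1 (0.97), Ascc3 (0.63), a helicase that pulls apart collided ribosomes, the ubiquitin ligase Zfp598 (0.49) and the deubiquitinase Usp10 (0.40) rose. Pelo and the ligase Rnf14 (−0.56) fell. Hbs1l, the partner of Pelota, had 136 and 146 raw footprints in KO and 121 and 121 in WT (0.39, adjusted p = 0.108).
Of 8 genes of the Rps6k kinase families, 2 rose (Rps6kb2, 0.70, and Rps6ka4, 0.60), 1 fell (Rps6ka5, −0.91) and 5 were not called. Rps6kb1, which encodes S6 kinase 1, had 16.8 and 20.7 CPM in KO against 18.1 and 20.5 in WT (−0.04, adjusted p = 0.881). Of 30 genes of the mitochondrial small subunit, 6 rose and 24 were not called, with a median of 0.35. For both lists the count that rose lies near the 19.9% called higher over all transcripts. The medians of the kinases and of the mitochondrial genes lay nearer to that of all transcripts than the median of the 31 did.

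**Figure D3:**
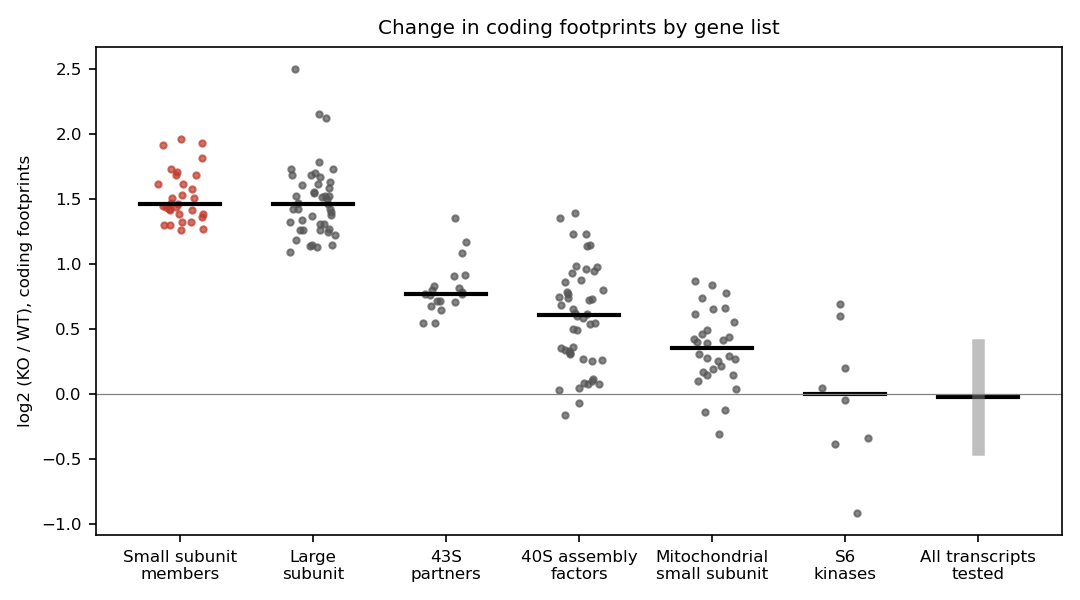
Log2 change of KO over WT for each tested gene (points) of the small subunit proteins and of related lists, with a black line for the median of each list and a grey bar for the interquartile range of all transcripts tested. The red points of the 31 genes form a narrow band around 1.46, the 43S factors lie around 0.77, the assembly factors around 0.61, and the kinases straddle 0.

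Median changes were close with and without the pyrimidine motif at the start, and the difference was not tested. The 9 small subunit genes with it had a median log2 change of 1.51, and the 14 with a promoter and no motif had 1.49. Over the whole table, 1210 tested genes with the motif had a median of −0.05 with 19.3% called higher, and those without it had −0.02 with 19.5%. Of the 1210, 1184 had symbols that do not start with Rps or Rpl. Among the 23 small subunit genes with a promoter, the longest runs were those of Rps10, Rps18 and Rps6. Their log2 changes were 1.26, 1.46 and 1.51, and a relation between run length and change was not tested.

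In the 5′ UTR, few footprints fell on the small subunit genes. Of the 31, 30 had an annotated 5′ UTR, of 11 to 211 nt with a median of 70.5 nt, against 134 nt over listed transcripts. In 10 of these 30 no footprint was counted in any library. Summed, they held 207 and 192 in KO and 61 and 58 in WT, or 0.510 and 0.498 per 100 coding counts in KO and 0.335 and 0.423 in WT. Over all transcripts the values were 1.55 and 1.79 in KO and 1.14 and 1.04 in WT.
Enough counts for a test of the ratio of 5′ UTR to coding footprints were present in 4 genes, which is not a sample of all 31. Rps4x had 73 and 62 footprints in its 5′ UTR in KO and 18 and 22 in WT (log2 change of the ratio −0.13, adjusted p = 0.886). Rps20 had 33 and 46 in KO and 8 and 8 in WT (0.36, adjusted p = 0.686). In both genes the coding counts rose too. Per 100 coding counts, Rps4x held 2.491 and 2.145 in KO and 1.225 and 1.887 in WT. Rps20 held 4.24 and 5.98 in KO and 2.08 and 2.77 in WT. For Rps25 the genotypes overlapped, with 0.878 and 1.46 in KO and 1.01 and 0.855 in WT. Rps20, and Rps25 below, reached the minimum of 10 counts only in KO. They thus entered the test through the genotype where their counts were higher, and their raw counts therefore cannot show a difference beyond that filter.
Rps25, a head protein that some viral internal ribosome entry sites need, had 11 and 15 in KO and 5 and 3 in WT (−0.45, adjusted p = 0.724); its coding level was 276 and 239 CPM in KO and 87.1 and 81.0 in WT. None of the 4 was called by edgeR, with none at an unadjusted p under 0.05 and none by DESeq2, and the whole table called 1.17% of 1618 transcripts.
The ratio was scaled within each region, which sets its typical change to about 0. Scaled by the coding libraries instead, the median of all transcripts moved to 0.76 and 29.6% were called higher, and the 4 genes were not called. On that scale Rps20 had a log2 change of 1.08 (adjusted p = 0.0552). Rps12 had 7 and 2 footprints in its 5′ UTR in KO and 5 and 7 in WT, too few for the test. That was 14.3 and 3.23 per 100 coding counts in KO and 19.2 and 58.3 in WT, lower in both KO libraries, unlike the sum over the members.

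In the 3′ UTR, where ribosomes that pass or are not removed at a stop codon can be found, counts were smaller still. Annotated 3′ UTRs of 30 genes had a median length of 44 nt, against 921 nt over listed transcripts. Summed, they held 59 and 52 counts in KO and 11 and 14 in WT, or 0.145 and 0.135 per 100 coding counts in KO and 0.0605 and 0.102 in WT. Over all transcripts the values were 0.599 and 0.639 in KO and 0.731 and 0.697 in WT. Rps29, a zinc-binding head protein with 123 and 88.1 CPM over its coding region in KO and 43.8 and 33.5 in WT, was the only one with enough counts for a test. It had 11 and 13 footprints in its 3′ UTR in KO and 4 and 3 in WT (log2 change of the ratio 1.05, SE 0.591, adjusted p = 0.213). Rps29 reached the minimum count only in KO and thus entered the test through the genotype where its counts were higher. Its raw counts and ratio therefore cannot show a difference beyond that filter. Rps29 was not called by edgeR or by DESeq2, against 10.8% of 223 transcripts. A difference in 3′ UTR occupancy of the other genes was not detectable at this depth.

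The 12731 transcripts with all 3 regions also have 71 nt each that the deposited table counts in none of them, and whose position is not described. The kept Rps27 transcript, which has no UTR in the table, was 255 nt long with 195 nt counted as coding. Uncounted nt may therefore include protein-coding sequence, which was not tested. This transcript is not part of the comparison. Small subunit genes carried 4301 and 3889 footprints there in KO and 1212 and 995 in WT, over the 30 genes with all 3 regions. Per 100 coding counts that was 10.6 and 10.1 in KO and 6.66 and 7.25 in WT, against 4.65 and 4.65 in KO and 2.66 and 2.51 in WT over all transcripts. The ratio was higher in KO for the small subunit genes and for the table alike. The 71 nt are a fixed length, so a short coding region raises the ratio at an equal density of footprints. Counted coding regions of the small subunit genes were 111 to 828 nt long. The higher ratio of these genes than of all transcripts was not adjusted for length and does not show a higher density.

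**Figure D4:**
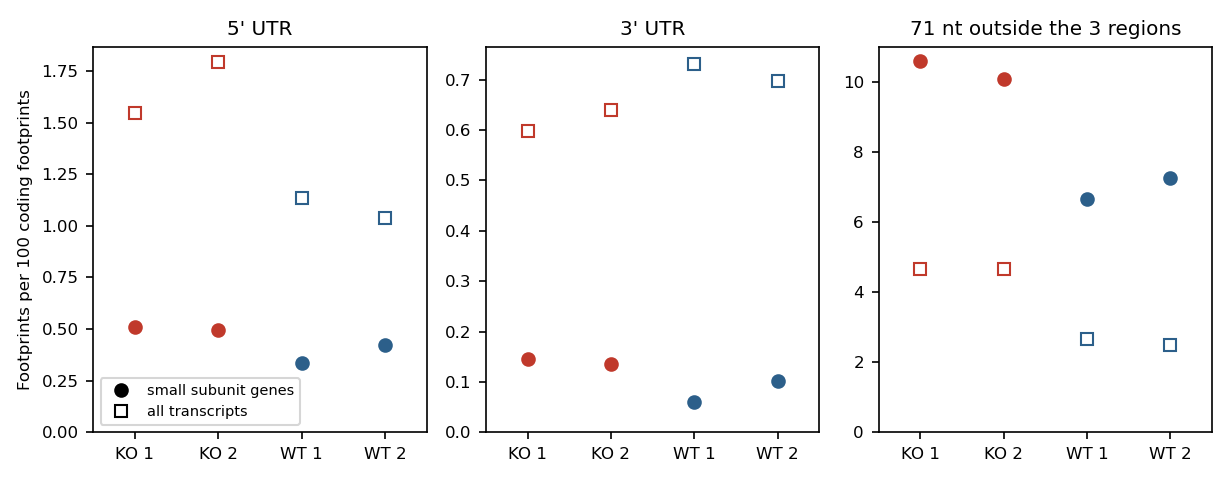
Summed footprints in the 5′ UTR, the 3′ UTR and the 71 nt outside the 3 regions, per 100 coding footprints, in each KO and WT library, for the small subunit genes (filled) and for all transcripts (open). The small subunit genes lie below all transcripts in both UTRs and above them in the 71 nt, in all 4 libraries, with no adjustment for the lengths of the regions.

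Rps29 had 49.6 and 50.9 per 100 coding counts in KO and 23.7 and 29.7 in WT, the largest ratio in 3 of the 4 libraries. In WT replicate 1, Rps28 was higher at 26.8. The counted coding region of Rps29, 111 nt, is the shortest of the 31. Rps16, a head protein that reaches toward the tRNA in the P site, had 15.2 and 10.1 in KO and 3.94 and 3.81 in WT (log2 change of the ratio 1.06, adjusted p = 0.0759). Rps3 had 2.61 and 3.29 in KO and 0.960 and 1.15 in WT (0.88, adjusted p = 0.203). Toward the other end, Rps10 had 16.8 and 21.8 in KO and 16.9 and 19.1 in WT (−0.53, adjusted p = 0.217).
Of 28 genes with enough counts, none was called by edgeR with scaling within each region or by DESeq2, and 4 had an unadjusted p under 0.05. Over the table, 0.454% of 2865 transcripts were called higher and 0.698% lower. Scaled by the coding libraries, the median of all transcripts was 0.58 with 20.6% called higher. The median of the 28 was then 0.70, and 13 of them were called higher, Rps16, Rps3, Rps29 and Rps14 among them. This comparison was chosen after the data were seen. Rps14 reached the minimum count only in KO (50 and 45 footprints, against 6 and 9 in WT) and entered the test through that genotype.

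**Figure D5:**
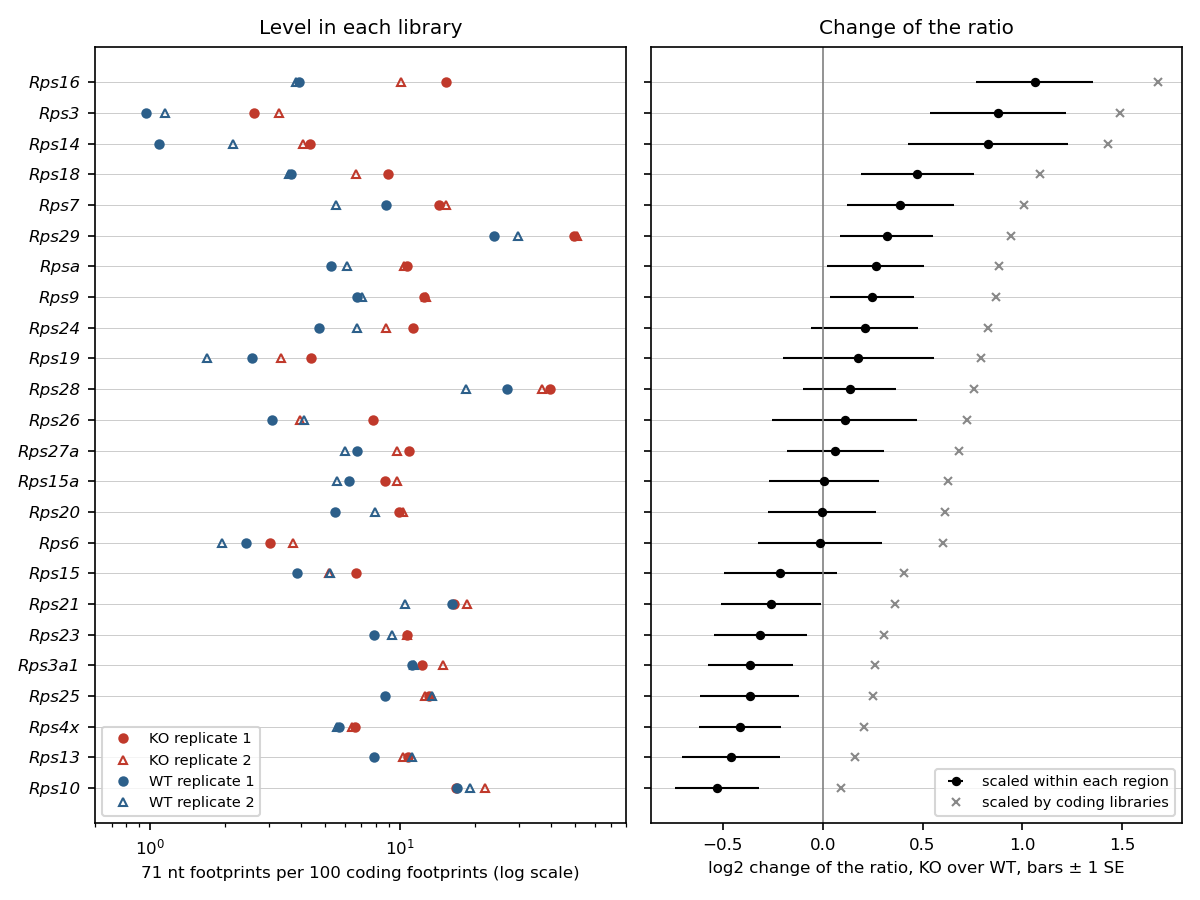
Left, footprints in the 71 nt outside the 3 regions per 100 coding footprints (log axis) in each KO and WT library for 24 of the 28 genes tested; right, log2 change of that ratio, KO over WT, scaled within each region (black, bars of 1 SE) and by the coding libraries (grey crosses). Black points run from −0.53 for Rps10 to 1.06 for Rps16, and the grey crosses all lie to the right of them.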

How the data were processed

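Ribosome footprints of primary mouse epidermis were deposited by the authors as raw counts per transcript region (whole transcript, 5′ UTR, coding region and 3′ UTR), per the file headers. Builds hg19 and mm9 and the tools TopHat2 2.0.10, Bowtie2 2.2.6 and CASAVA 1.8 are named, without roles, in the submitters' processing notes. No source used here gives the treatment of multi-mapping reads. The headers describe 2 length classes of footprint, but the 2 deposited tables are identical, so the length class is unknown. Counts are listed only above a coding density of 0.01 footprints per nt; all members were listed in every library.

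Coding counts of transcripts listed in all 4 libraries, with 10 or more counts in 2 or more libraries, were scaled with TMM and tested with edgeR 4.0.16 (quasi-likelihood) in R 4.3.3, with Benjamini-Hochberg adjustment over 10953 transcripts and a threshold of 0.05. The biological coefficient of variation was 11.1%. CPM and RPKM were computed from these counts. UTR to coding ratios were tested by a region-by-genotype interaction term, with a factor for library and TMM within each region. DESeq2 1.42.0, other scalings, filters and left-out libraries were alternatives. The scripts were tested on simulated data. RefSeq GRCm38.p6 gave start sequences and pseudogene names. Named genes were the 5 largest and 5 smallest changes, the 3 highest and 3 lowest levels, fixed roles and all members tested in a UTR. A few genes that the rule would name are not reported here and are left out of the plots by gene. The members, lists and rules were chosen with earlier results of these data known. Counts without molecular identifiers are not independent molecules.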

Additional observations from a re-analysis of the deposited data

How the results depend on the processing

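All 341 values of single members under the alternatives for coding footprints kept their direction and their call, with a largest adjusted p of 0.0150 (Rps12, with unlisted counts set to 0). Library totals alone moved the median of all transcripts from −0.02 to −0.20 and that of the members to 1.28. DESeq2 called 2669 transcripts in place of 4277. Without cornified and fibroblast markers in the total, the members' share averaged 0.921% in KO and 0.385% in WT; over members without named pseudogenes it averaged 0.237% in KO and 0.0980% in WT.

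Counts of transcripts called for UTR ratios depended on the setting, and the cause was not tested. For the 5′ UTR, 19 became 493 with coding scaling, 40 with at least 20 counts, 8 with DESeq2, 0 with the replicate block and 13 to 54 with 1 library left out. For the 3′ UTR, 24 became 0 with coding scaling, 45 with at least 5 counts, 2 with DESeq2, 15 with the replicate block and 0 to 34 with 1 library left out. For the 71 nt, 33 became 596 with coding scaling, 20 with at least 20 counts, 2 with DESeq2, 20 with the replicate block and 0 to 21 with 1 library left out. Members called there numbered 13 with coding scaling, 1 (Rps16) with at least 5 counts and 0 to 1 with 1 library left out (Rps16 without KO replicate 2). The uncalled 5′ UTR ratios of Rps25 and Rps4x turned to 0.24 and 0.60 with coding scaling, and that of Rps4x ran from −0.49 to 0.20 with 1 library left out. With 1 library left out, the lone sample is assumed to vary like the other genotype. A 3′ UTR test of members was not possible with at least 20 counts or without either KO library.

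Replicate numbers do not pair the samples by the labels; deviations of same-numbered libraries correlated at −0.0055. With replicate as a block, 31 members and 4337 transcripts were called for coding footprints. Depth limits the UTR values, mostly under 20 counts a member.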
